A study of Mus musculus with 64 samples.

Results

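CD11c+CD103+CD11b- cells are the surface phenotype under which one class of intestinal dendritic cells is known. The 6040 cells described here were chosen by their measured counts of 6 surface proteins, among 130442 immune cells of the mouse colon that passed 2 filters on total counts. Membership was selected on the centred log ratio of each protein, which is the natural log of its count plus 1 minus the mean of that quantity over the 11 antibodies in the same cell. A cell had to exceed 0.497 for CD11c and 0.149 for CD103, and had to be at or below 0.712 for CD11b, 0.105 for CD64, -0.155 for CD3 and 0.982 for Ly-6G. These cells made up 4.63% of the kept cells of 9 libraries, and 61.2% of them came from the libraries of weeks 0 and 1.

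The study followed T cell transfer colitis in SCID mice, hosts without T and B lymphocytes of their own, and in Rag2 KO mice, of which only SCID colon was used here. All 9 libraries carry the same labels of genotype (SCID) and treatment (CD45RBhi transfer), week 0 included. The CD45RBhi fraction holds naive CD4 T cells, which cause colitis in such hosts. There was 1 library from each of weeks 0, 1, 2, 3, 4, 5, 6 and 7 without further treatment. The remaining library, also of week 7, came from animals dosed with anti-IL-12p40 since day 10, which blocks the subunit that IL-12 and IL-23 share. Each library held EpCAM-CD45+ cells sorted from the lamina propria fraction of 3 pooled animals, and neither the sex nor the age of the animals is given in the labels. What separates 2 weeks and what separates 2 pools cannot be told apart with 1 pool a week.

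Dendritic cells take up antigen in the gut wall and carry it to the draining lymph nodes, where they prime T cells. CD11c is an integrin chain that they carry at high density, and CD103 is the integrin alpha E chain, which pairs with beta 7 to bind E-cadherin on epithelium. The CD103+CD11b- class is known for cross-presenting antigen to CD8 T cells and for making IL-12, while the CD103+CD11b+ class is the other CD103-bearing class of the lamina propria. CD103 is also found on mucosal T cells and on some innate lymphoid cells, and CD11c on macrophages and on some lymphoid cells, so the rule shuts out cells with CD3 (T cells), CD64 (macrophages), Ly-6G (neutrophils) and CD11b. The panel had no MHC class II, XCR1 or B cell antibody, so a dendritic identity rests on CD11c and CD103 alone.

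Barcodes per library numbered 11534 to 21229, with total antibody counts of 12914066 to 28723452. Members had fewer antibody counts than the kept cells around them: their median total was 414 to 934 counts, or 0.466 to 0.857 of the library's median. Of the 6040 members, 182 had a barcode sequence that also occurred in another library, and leaving such barcodes out gave 13.9% members at week 0 and 0.650% at week 7. No doublet caller was run, so droplets with 2 cells remain among the members.

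The label was first checked against its own markers. Over all members the median was 234 CD11c counts and 144 CD103 counts, and the lowest values of any member were 5 CD11c and 3 CD103 counts. The shut-out proteins were low, with medians of 10 counts for CD11b, 4 for CD64, 2 for CD3 and 3 for Ly-6G. These values follow from the rule. Of the proteins that the rule did not use, CD4 had a median of 4 counts, CD127 of 2, KLRG1 of 1, CD90.2 of 32 and Ly-6C of 97. CD90.2 had the longest upper tail, with a 95th percentile of 1145 counts, and 21.8% of members were CD90.2+, that is, above the point at which both components of a 2-component mixture were equally probable. CD90.2 marks T cells and innate lymphoid cells, so for that share of the cells the markers go against a purely dendritic label, and all of them are called by their phenotype.

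Members were most frequent in the libraries of weeks 0 and 1. At week 0 they were 13.9% of kept cells (2333 of 16735, exact 95% interval 13.4% to 14.5%), and at week 1 they were 10.8% (10.3% to 11.4%). At week 2 the share was 1.88% (1.70% to 2.08%), which is 7.40 times lower than at week 0. Weeks 0 and 1 stood above all later libraries, whose highest value was 4.13%.

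The later weeks did not follow one direction. Members were 1.70% of kept cells at week 3 (214 cells), 4.13% at week 4 (739 cells), 2.17% at week 5 (302 cells) and 3.07% at week 6 (350 cells). At week 7 the share was 0.638% (76 of 11907, 0.503% to 0.798%), the lowest of the course and 21.8 times below week 0. The intervals are exact Clopper-Pearson intervals and cover counting error only. The size of the week 0 value depended on how the thresholds were set. With thresholds fitted in each library by itself it was 4.60%, below the 7.32% of week 1 and near the 4.44% of week 4. Week 7 was then 0.302%. At week 0 this fit put the thresholds at -1.66 for CD3 and -1.45 for Ly-6G, against -0.155 and 0.982 in the rule. That library held 1 CD3+CD4+ cell and 125 CD11b+Ly-6G+ cells. At week 7 the fitted CD64 threshold was -1.67, against 0.105 in the rule. With counts scaled to the library median weeks 0 and 1 were 13.1% and 10.9%, but week 3 was the lowest at 0.0239% (3 cells), week 7 was 0.0504% (6 cells), and weeks 4, 5 and 6 were 1.86%, 0.489% and 0.403%.

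The share was also taken over CD3- cells, since T cells were a changing part of the libraries: CD3- cells were 16634 of 16735 kept cells at week 0 and 1422 of 11907 at week 7. On that scale members were 14.0% at week 0, 11.6% at week 1, 3.21% at week 2, with 4.43% and 9.24% at weeks 3 and 4. They were then 7.66% at week 5, with 6.96% and 5.34% at weeks 6 and 7. The distance from week 0 to week 7 was 2.62 times over CD3- cells, against 21.8 times over all kept cells. The CD3- cells still held CD90.2+CD4+ cells that lack CD11c, CD11b, CD64 and Ly-6G. These were 523 of 16634 CD3- cells at week 0, 1694 of 5031 at week 6 and 213 of 1422 at week 7. Whether they were T cells was not tested. Week 2 was the lowest point over CD3- cells with the thresholds of the rule. With thresholds fitted in each library week 7 was the lowest, at 2.28% against 3.04% at week 2. With counts scaled to the library median, weeks 3 and 7 (0.130% and 0.762%) lay below week 2 (2.74%).

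Among the CD11c+CD64-CD3-Ly-6G- cells alone, members were close to an even part of the gate in several weeks. They were 48.7% of that gate at week 0, 53.3% at week 1, 18.5% at week 2, with 33.8% and 49.2% at weeks 3 and 4. At weeks 5, 6 and 7 they were 42.5%, 38.7% and 39.8%. Week 2 was lowest, and its interval for counting error alone (16.9% to 20.3%) overlapped no other week's. With scaled counts week 3 was lower (9.68%, 3 cells, against 23.1%). In the week 2 library the gate was mostly CD103- cells, 1633 of 2131 (76.6%).

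**Figure D1:**
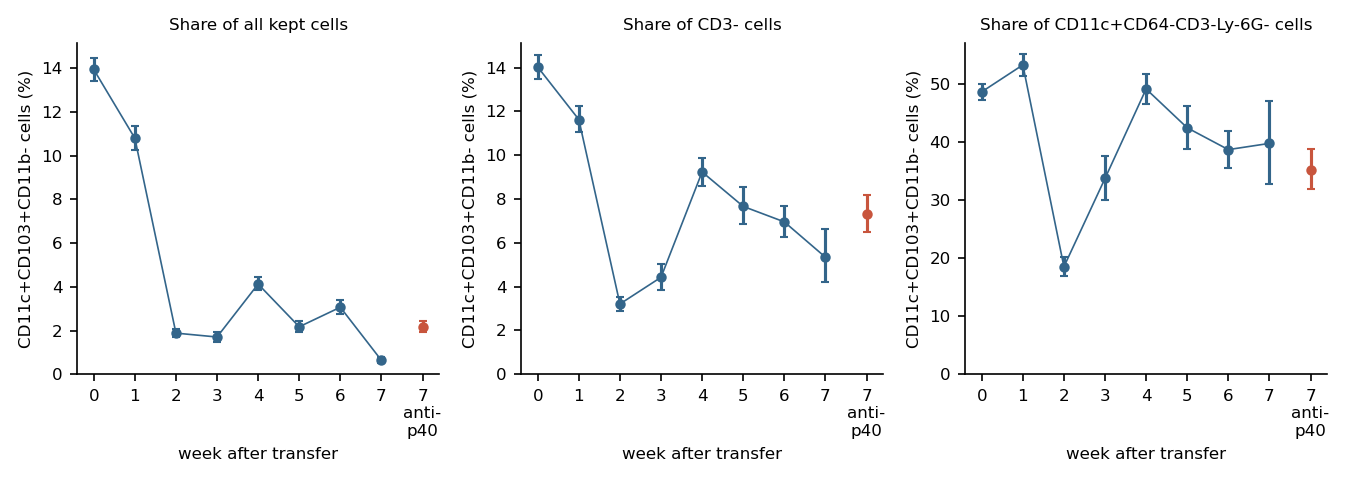
CD11c+CD103+CD11b- cells as a percentage of all kept cells (left), of CD3- cells (middle) and of CD11c+CD64-CD3-Ly-6G- cells (right) by week after transfer, with exact 95% binomial intervals for counting error. Untreated libraries are blue and joined by a line, and the anti-IL-12p40 library is red; the lowest untreated point is week 7 in the left panel (0.638%) and week 2 in the middle (3.21%) and right (18.5%) panels.

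No steady course over the 8 untreated libraries was called. Spearman's rho between week and the share of all kept cells was -0.619 (two-sided exact permutation p over 40320 orderings = 0.115, Benjamini-Hochberg adjusted over 3 shares 0.345), and Pearson's r was -0.771 (exact p = 0.0207, adjusted 0.0621). Without weeks 0 and 7 rho was -0.0857 (exact p = 0.919) and r was -0.54. Leaving out week 0, week 1 or week 7 alone gave a rho of -0.429 each. Over CD3- cells rho was -0.405 (exact p = 0.327, adjusted 0.490) and r was -0.523 (exact p = 0.185). Within the CD11c gate rho was -0.262 (exact p = 0.536) and r was -0.127 (exact p = 0.779). None of the 3 trends was below 0.05 after adjustment.

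The 2 proteins that define the phenotype were both lowest at week 2 and differed in how far they came back. These counts were not scaled, and the members' median total was also lowest at week 2. It was 414 counts there, against 934 at week 0 and 764.5 at week 7. Median CD11c on members was 351 counts at week 0, 172 at week 1, 88 at week 2, 143 at week 3, 214 at week 4, 226 at week 5, with 294 and 272 at weeks 6 and 7. Median CD103 was 273, 140, 51 and 102.5 counts at weeks 0, 1, 2 and 3, and 72, 103, 87 and 91.5 counts at weeks 4, 5, 6 and 7. CD11c returned toward its week 0 level after the low of week 2, while CD103 stayed at 103 counts or below from week 2 on. To set both proteins against each other within a cell, their ratio was taken as well.

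That ratio, CD103 plus 1 over CD11c plus 1 with the median taken over members, fell into 2 ranges. It was 0.781 at week 0, 0.808 at week 1, with 0.571 and 0.709 at weeks 2 and 3. It was 0.323 at week 4, 0.420 at week 5, with 0.282 and 0.358 at weeks 6 and 7. The lowest value of weeks 0 to 3 lay above the highest value of weeks 4 to 7. Because both proteins were part of the rule, the ratio is a description and was given no test. The share of members with more CD103 than CD11c counts was 32.3% at week 0 and 14.5% at week 7.

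The lower ratio was also seen outside the cells whose label is in doubt. In members without CD90.2 and CD4 the ratio was 0.526 to 0.808 in the first 4 weeks shown and 0.271 to 0.373 in the last 4. In CD90.2+ members it was 0.717 to 0.817 and 0.457 to 0.821, so there the 2 ranges overlapped. In the CD103+CD11b+ cells, which are not members, it was 0.358 to 0.683 and 0.204 to 0.388. The 0.388 came from the 6 such cells of week 7, and the next highest value of weeks 4 to 7 was 0.341. On CD103+CD3+ T cells the median CD103 count was 71 at week 3 and 58 at week 4, then 73, 55 and 71 at weeks 5, 6 and 7. Over all untreated libraries it ran from 39 to 122.5 counts, with week 0 included. At week 0 there were 18 such cells, 0 of them CD4+ and 3 CD90.2+, so there the T cell label rests on CD3 alone.

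**Figure D2:**
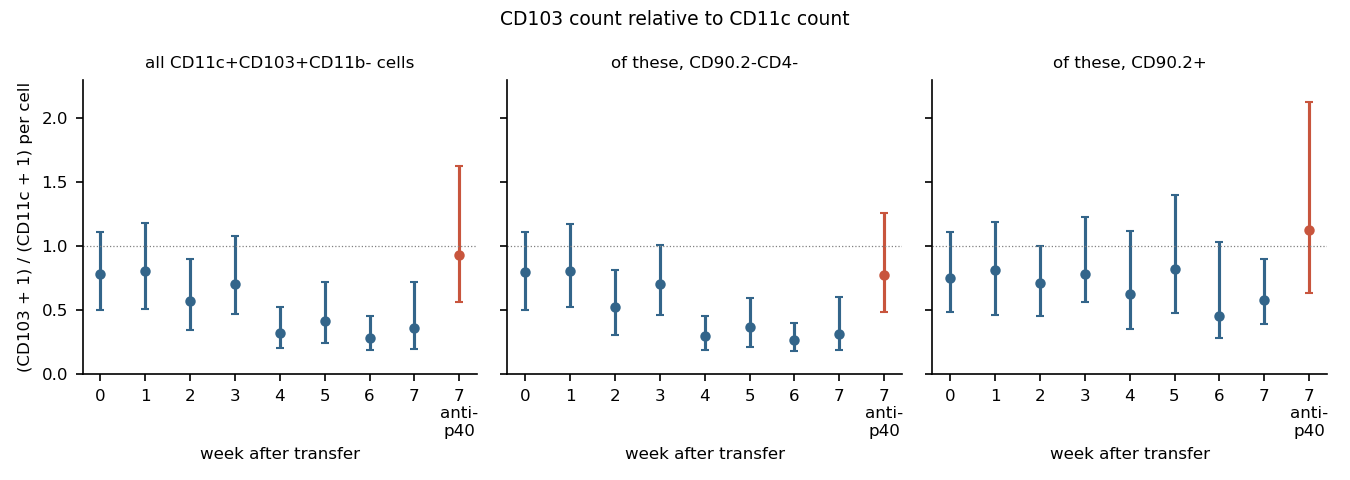
Ratio of CD103 to CD11c counts (each plus 1) per cell by week, for all CD11c+CD103+CD11b- cells (left), those without CD90.2 and CD4 (middle) and the CD90.2+ ones (right); points are medians and bars run from the 25th to the 75th percentile of cells. In the first 2 panels weeks 4 to 7 lie below weeks 0 to 3, and the anti-IL-12p40 library (red) lies with the early weeks, at 0.933 and 0.778.

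Of the 5 proteins that the rule left free, CD4, the T cell coreceptor, was the one whose level came nearest to a course with time. Its median on members was 3 counts at week 0, 2 at week 1, 3 at week 2, 8 at week 3, 5 at week 4, 15 at week 5, with 11 and 13 at weeks 6 and 7. Weeks 5 to 7 were above weeks 0 to 4. The rank correlation with week of the mean of ln(count + 1) was 0.833 (exact permutation p = 0.0154, adjusted over 5 proteins 0.0769) and r was 0.881 (exact p = 0.00645, adjusted 0.0322). Without weeks 0 and 7 rho was 0.886 (exact p = 0.0333) and r was 0.886 (exact p = 0.0222).

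By the rank test 0 of the 5 free proteins were called on members, a share of 0%, with 1 of 5 (CD4) at an unadjusted exact permutation p below 0.05. Over all kept cells the same test called 1 of 5, a share of 20.0%, which was CD4 (rho 0.929, adjusted exact p = 0.0112). All these levels are antibody counts per cell and were compared between libraries without scaling. The members' median total had a rho of 0.262 with week (exact permutation p = 0.536) and an r of 0.195 (exact p = 0.635). Without weeks 0 and 7 these were 0.886 and 0.829. With every cell thinned to 200 counts, the rho of CD4 with week was 0.881 (adjusted exact permutation p = 0.0362).

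The median CD4 count of members was below that of cells that should lack it. CD11b+Ly-6G+ cells, the neutrophil phenotype, had median CD4 counts of 5, 16, 7 and 37 at weeks 0, 1, 2 and 3, and of 9, 24, 22 and 24 at weeks 4, 5, 6 and 7. Members were below these cells in 9 of 9 libraries, by ratios of 0.125 to 0.625, and the neutrophils' median total was higher (1404 to 4575 counts against 414 to 934). The share of CD4+ cells was 2.50% to 19.9% of members and 4.80% to 38.0% of the neutrophil phenotype over the untreated libraries. It was lower on members in 6 of these 8 and higher at week 2 (10.9% against 9.96%) and week 4 (10.6% against 8.50%), with overlapping intervals in both weeks. With totals this unlike, the unscaled medians cannot decide whether members carried more or less CD4 than these cells. The few CD4+ members had medians of 178.5 counts at week 0 (70 cells), 142 at week 1 (34 cells) and 114 at week 2 (43 cells). CD3+CD4+ T cells had medians of 144 counts at week 2 and 276 at week 7.

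CD90.2, the glycoprotein Thy-1 of T cells and innate lymphoid cells, ranged more widely. The members' median was 40 counts at week 0, 17 at week 1, 21 at week 2, 41 at week 3, 15 at week 4, 49.5 at week 5, with 55 and 75 at weeks 6 and 7. The highest untreated value was week 7 and the lowest week 4, with no order between. Spearman's coefficient was 0.333 (exact permutation p = 0.428, adjusted 0.535) and r was 0.48 (exact p = 0.231).

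By its median, Ly-6C, a surface protein of monocytes and some T cells, was near its level on T cells of the same library and below its level on CD64+ cells. Its median was 91 counts at week 0, 61 at week 1, 136 at week 2, 224 at week 3, 137 at week 4, 132 at week 5, with 160.5 and 101 at weeks 6 and 7. CD3+CD4+ T cells of the same libraries had medians of 68 at week 1, 168 at week 2, with 255 and 103 at weeks 3 and 7, and the ratio of members to these T cells was 0.810 to 1.02 over the 8 libraries with at least 20 such T cells. Members were below CD64+ cells in 9 of 9 libraries. The rank correlation with week was 0.333 (exact permutation p = 0.428, adjusted 0.535). Ly-6C+ cells were 18.7% of members at week 2 (74 of 395) and 0% to 3.95% in the other untreated libraries. At week 2 they were 5.36% of CD3+CD4+ T cells, 22.3% of CD103+CD11b+ cells and 30.2% of all kept cells.

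CD127, a chain of the receptor for interleukin-7, and KLRG1, an inhibitory receptor on lymphocytes that binds cadherins, had medians near the floor. Median CD127 was 1 to 6 counts and median KLRG1 was 0 to 2 counts over the untreated libraries. Of all members 17.6% had no CD127 count and 41.3% no KLRG1 count. CD127+ cells were 9.74% to 29.0% of members over the untreated libraries, against 28.7% to 67.8% of all kept cells. KLRG1+ cells were 0.286% to 12.7% of members. At week 0 median CD127 was 12 counts on CD90.2+ members and 2 on CD90.2- members. Spearman's coefficient was 0.548 for CD127 (exact permutation p = 0.171, adjusted 0.427) and 0.167 for KLRG1 (exact p = 0.703).

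**Figure D3:**
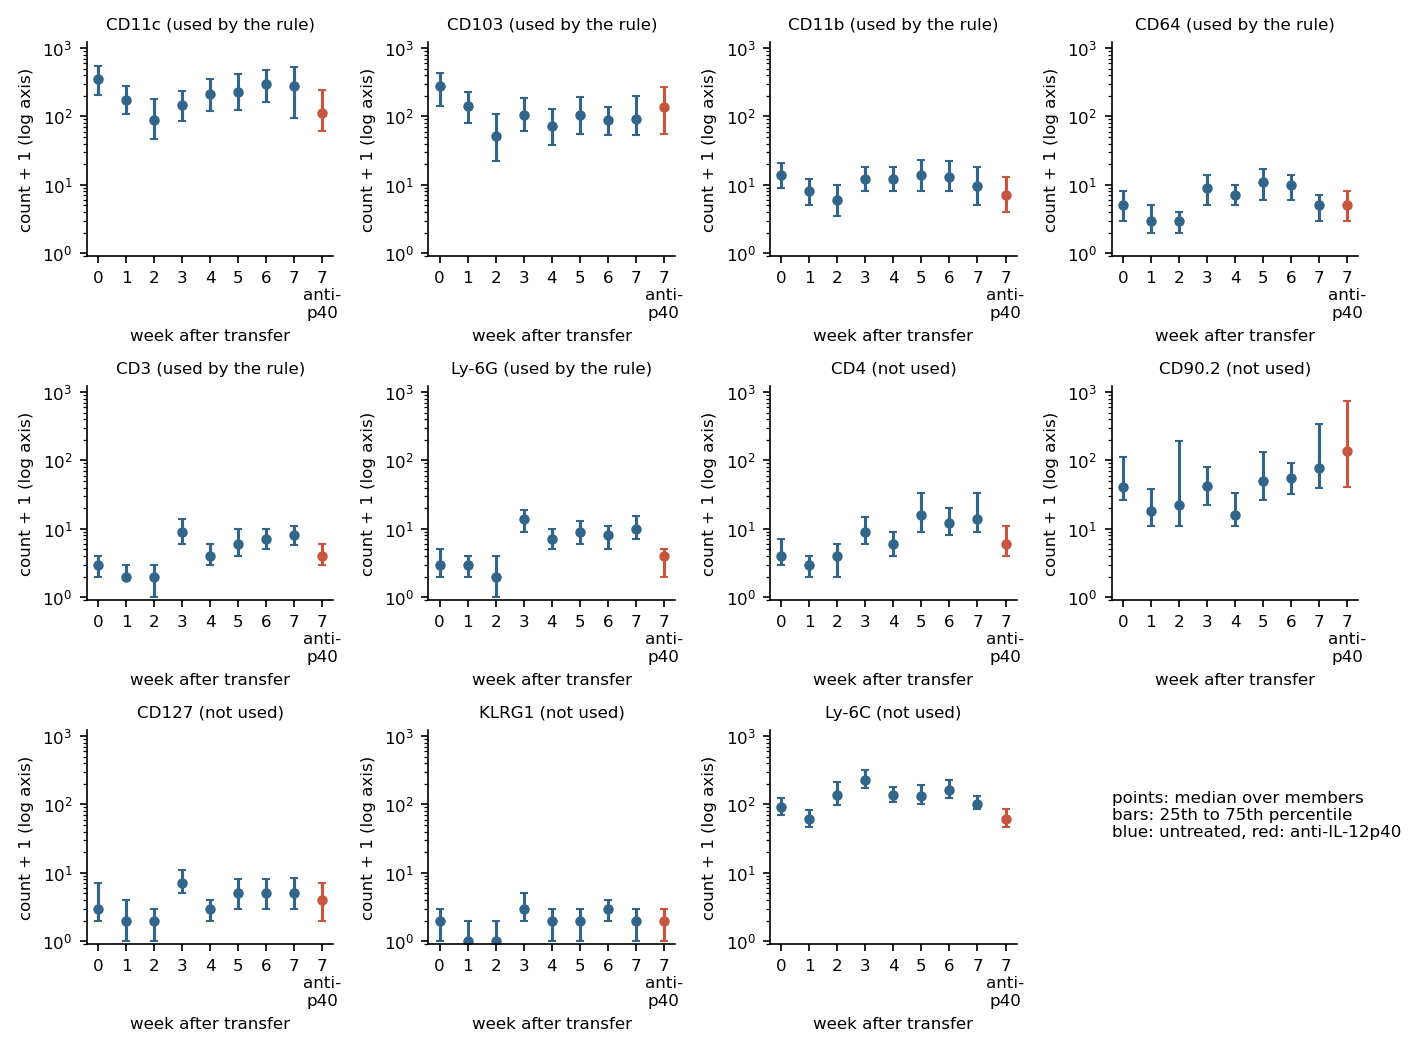
Counts per cell of all 11 antibodies on CD11c+CD103+CD11b- cells by library, as count plus 1 on a log axis; points are medians and bars run from the 25th to the 75th percentile of cells. CD11c and CD103 (used by the rule) are lowest at week 2, and the bar for CD90.2 reaches highest in the anti-IL-12p40 library (red), up to 731 counts at the 75th percentile.

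CD90.2 and CD4 split the members into 4 kinds of unequal size. Cells with neither protein were 4567 of 6040 (75.6%), and they were 63.2% to 87.4% of members over the untreated libraries. CD90.2+CD4- cells were 18.4% of all members, CD90.2-CD4+ cells 2.62% and CD90.2+CD4+ cells 3.36%. The lowest untreated share of CD90.2+ cells was 12.3% at week 6 and the highest 33.4% at week 2.

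The CD90.2+ members had high total counts, which include the CD90.2 counts by which they were set apart. At week 0 their median total was 1709 counts (555 cells), against 830 in the 1745 members without CD90.2 and CD4. Their median CD90.2 was 850 counts, near the 925 counts of CD3-CD90.2+ cells that lack CD11c, CD11b and CD64, and against 31 counts in the other members. Their CD11c (318 counts) was close to that of the other members (359 counts), and their CD103 was lower (218 against 289 counts). Of the CD90.2+ members 13.0% lay above the 90th percentile of their library's totals, against 0.229% of the members without CD90.2 and CD4. The share of all kept cells above that mark is fixed by its definition and is only a little below 13.0%. The part of droplets that hold 2 cells was not tested.

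From week 2 on the CD90.2+CD4- members carried less CD11c. At week 2 their median was 57 CD11c counts against 104 in members without CD90.2 and CD4, and at week 3 it was 97 against 151. At week 4 it was 104.5 against 245, and at week 5 it was 99 against 261. At week 6 it was 65 against 301, and at week 7 it was 68 against 359. At weeks 0 and 1 the medians lay closer, at 316.5 against 359 and 150 against 177. From week 2 on CD103 was more alike in both than CD11c. It was 78 against 71 counts at week 4, 72 against 85.5 at week 6 and 60 against 112.5 at week 7. At weeks 0 and 1 CD103 differed more than CD11c, at 219.5 against 289 and 99 against 148. The numbers of such cells were 64, 38, 17 and 15 at weeks 4, 5, 6 and 7.

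The few CD90.2+CD4+ members had the highest totals, which include the CD90.2 and CD4 counts that set them apart. At week 6 the median of the 26 such cells was 1991 total counts, 29.5 of CD3, against 683 and 6 in the 306 members without CD90.2 and CD4. At week 7 the 8 such cells had 2067 total and 26.5 CD3 counts. Their CD3 counts passed the rule because the threshold is relative to the cell's own mean.

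**Figure D4:**
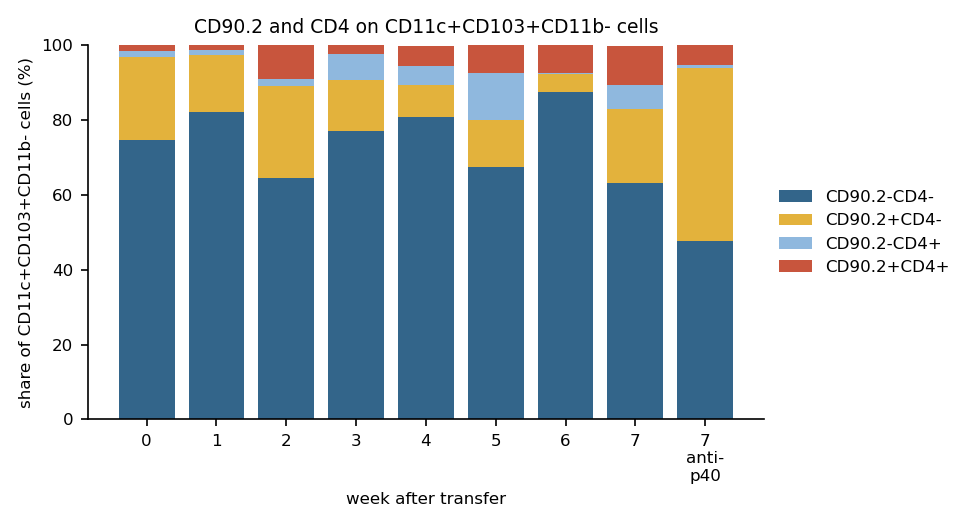
Share of CD11c+CD103+CD11b- cells by CD90.2 and CD4, in percent of these cells, for each library by week; the 4 colours add up to all of them. Cells with neither protein are the largest kind in all 9 libraries, from 87.4% at week 6 down to 47.8% in the anti-IL-12p40 library, where CD90.2+CD4- cells reach 46.3%.

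Members were then set beside the 2 other phenotypes of the same CD11c gate within each library, for the 5 free proteins. The CD103- cells were taken at any level of CD11b, unlike members. Of 10 comparisons 5 were called (50%) at an adjusted p below 0.05 by a two-sided exact sign-flip permutation test over libraries. All 5 called ones were against CD103- cells and were lower on members, and 0 of 5 were called against CD103+CD11b+ cells, where 1 had an unadjusted p below 0.05. The mean over 11 proteins that enters the centred log ratio includes these 5, so they are not wholly free of the rule.

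Against CD11c+CD103- cells the difference was greatest for CD90.2. Its median on members was 40, 17, 21 and 41 counts at weeks 0 to 3 and 15, 49.5, 55 and 75 at weeks 4 to 7. On CD103- cells it was 340.5, 113.5, 177 and 146 counts, then 26, 61, 152.5 and 91 counts. Members were lower in 8 of 8 libraries, and the mean difference in ln(count + 1) was -0.80 ± 0.46 (SD, n = 8 libraries, exact permutation p = 0.00781, the smallest the test can give, adjusted 0.0195). CD103- cells were CD90.2+ in 26.4% to 71.2% of cases and members in 12.3% to 33.4%.

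The lymphocyte receptors and Ly-6C differed from CD103- cells in the same direction. KLRG1 was lower on members by -0.55 ± 0.18, CD127 by -0.38 ± 0.17 and Ly-6C by -0.37 ± 0.19 in ln(count + 1) (SD, n = 8), each in 8 of 8 libraries (adjusted exact permutation p = 0.0195 for each). CD4 was lower by -0.32 ± 0.30 in 7 of 8 libraries (adjusted exact p = 0.0469). The CD4 call was lost in 14 of 22 alternative settings, among them each of the 7 in which one of weeks 0 to 6 was left out. The CD103- cells also had less CD11c than members, with medians of 25 to 188.5 counts against 88 to 351, which is a value of the rule's own protein. Their median total was 388 to 1283.5 counts. Median CD11b was 6 to 106 counts on CD103- cells and 5 to 13 on members over the untreated libraries. The differences are thus not between cells that differ in CD103 alone.

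Against CD11c+CD103+CD11b+ cells, the other CD103-bearing phenotype, no free protein was called after adjustment. This comparison used 7 libraries, since week 7 had 6 such cells, and the smallest p it can give is 0.0156 by the exact permutation test. Ly-6C came nearest, at -0.16 ± 0.19 in ln(count + 1) (SD, n = 7, lower on members in 6 of 7 libraries, exact permutation p = 0.0469, adjusted 0.0781). It was called lower on members in 4 of 24 alternative settings. In 1 other, the mean centred log ratio, it was called higher (0.0748, adjusted exact permutation p = 0.0469). Its median was 136 counts on members and 182 on CD103+CD11b+ cells at week 2, and 91 and 92 at week 0. KLRG1 and CD127 were called lower when CD90.2+ and CD4+ cells were left out of members alone (-0.156 and -0.172, adjusted exact permutation p = 0.0156 for each). With CD90.2+ cells left out of both phenotypes they were -0.0547 (adjusted exact p = 0.167) and -0.0188 (adjusted exact p = 0.688). The mean differences without such choices were -0.02 ± 0.17 for CD4, 0.04 ± 0.21 for CD90.2, 0.04 ± 0.15 for CD127 and 0.01 ± 0.09 for KLRG1.

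The CD103+CD11b+ cells were the rarer of both CD103-bearing phenotypes in 9 of 9 libraries. They were 698 cells at week 0, 103 at week 2, 21 at week 3, 102 at week 4, 78 at week 5, with 58 and 6 at weeks 6 and 7. Their CD103 median was 181 counts at week 0 and 66 at week 6, against 273 and 87 on members.

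**Figure D5:**
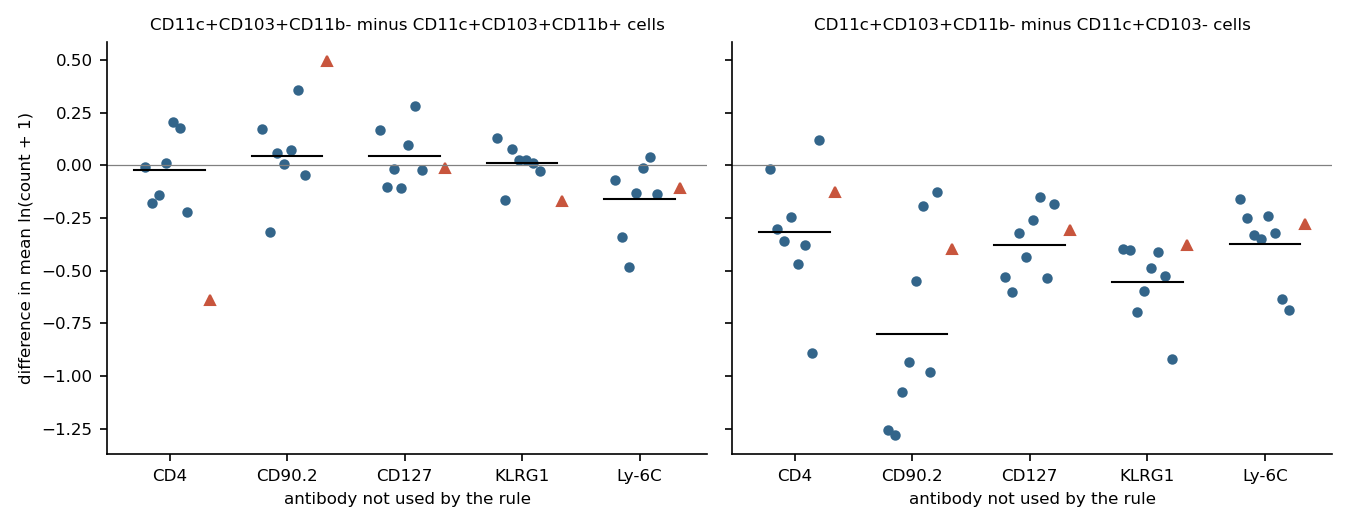
Difference in mean ln(count + 1) between CD11c+CD103+CD11b- cells and CD11c+CD103+CD11b+ cells (left) or CD11c+CD103- cells (right) for the 5 antibodies not used by the rule. Blue points are untreated libraries in order of week, black lines their means and red triangles the anti-IL-12p40 library, which entered no mean; on the right all points lie below 0 except 1 for CD4.

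At week 7 anti-IL-12p40 was compared with no treatment as 1 library against 1, so no test was made and a difference between the libraries cannot be told apart from one between pools. Members were 2.17% of kept cells with the antibody (270 of 12437, 1.92% to 2.44%) and 0.638% without (76 of 11907), a treated to untreated ratio of 3.40. The treated value lay inside the 0.638% to 3.07% of untreated weeks 5 to 7. Over CD3- cells the shares were 7.32% and 5.34%, a ratio of 1.37, and within the CD11c gate 35.2% and 39.8%, a ratio of 0.886. By the rule used for size (a ratio of at least 1.5 either way, intervals that do not overlap, and a value outside untreated weeks 5 to 7), 0 of the 3 shares differed.

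The ratio of 3.40 depended on the processing. Over all kept cells it was 1.44 with thresholds fitted in each library and 2.37 without CD90.2+ members. With counts scaled to the library median it was 22.5, where the untreated library had 6 members. Over CD3- cells the treated share was the lower one with fitted thresholds (1.35% against 2.28%) and without CD90.2+ members (3.55% against 3.73%). With scaled counts it was the higher one (5.11% against 0.762%). The fitted CD64 thresholds were -1.15 with treatment and -1.67 without, against 0.105 in the rule. For Ly-6G they were -1.50 and 1.00, against 0.982. Members without CD90.2 were 1.05% of kept cells with treatment and 0.445% without, again inside the range of weeks 5 to 7.

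CD90.2+ cells were a larger share of the treated members. With treatment 139 of 270 members were CD90.2+ (51.5%, 45.3% to 57.6%), against 23 of 76 (30.3%, 20.2% to 41.9%) without, and untreated weeks 5 to 7 ran from 12.3% to 30.3%. This was the 1 of 5 protein shares that met the size rule, with the CD90.2 threshold common to all libraries. The same direction was seen outside the members: CD103- cells of the gate were 70.7% CD90.2+ with treatment (66.3% to 74.8%) and 46.8% without (37.2% to 56.6%). CD64+ cells were 43.1% and 1.20% CD90.2+, and CD103+CD11b+ cells 25.6% (10 of 39) and 0% (0 of 6, which allows up to 45.9%). Over all kept cells the shares were 91.8% and 90.7%. Median CD90.2 there was 1188 counts with treatment, against 176 to 793 over the untreated libraries. On CD3+CD4+ T cells it was 1505, against 371 to 973. On CD64+ cells (109), the neutrophil phenotype (50) and CD3-CD90.2+ cells (763) it lay inside the untreated range. Fitted in each library by itself, the CD90.2 threshold was higher in the treated library than in any untreated one. The CD90.2+ share of members under that threshold was not tested. As a share of kept cells, CD90.2+ members were 1.12% with treatment and 0.193% without, a ratio of 5.79. CD4+ members were 5.93% and 17.1%, CD127+ 31.5% and 19.7% and KLRG1+ 7.41% and 1.32%, and for each of these the intervals overlapped.

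The treated CD90.2+CD4- members also had less CD11c than the others. The 125 cells had medians of 81 CD11c, 93 CD103 and 640 CD90.2 counts, against 194, 152 and 38 in the 129 treated members without CD90.2 and CD4. CD3-CD90.2+ cells of the same library had 3 CD11c, 4 CD103 and 763 CD90.2 counts. In all treated members CD11c was 111 counts and CD103 135.5, against 272 and 91.5 in untreated week 7. The CD103 to CD11c ratio was 0.933 with treatment and 0.358 without. In members without CD90.2 and CD4 it was 0.778 and 0.317, so the higher ratio was also seen without the CD90.2+ cells.

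The thresholds cut through few members except at CD11b. Within 0.1 of the CD11c threshold there were 35 members inside, with a median of 20 CD11c counts, and 37 cells outside that met all other criteria, with 17 counts. For CD103 there were 80 inside (13 counts) and 83 outside (11 counts). For CD11b 191 members lay just inside (23 counts, 3.16% of members) and 155 cells just outside (27 counts). For CD64 the numbers were 75 and 50 and for CD3 72 and 80, and no cell lay within 0.1 of the Ly-6G threshold on either side.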

How the data were processed

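The data are 9 antibody tables of the SCID immune fraction out of 64 samples; the other 55 were not used here. The authors deposited raw counts of 11 antibodies per barcode, as the whole-number values show. Cell Ranger 6.0.2, Seurat 4.1.1 and mm10 appear in the submitters' processing notes without a stated role, and the barcode filter is not given in any source used here. About 16000 cells were loaded per sample, per the labels' protocols.

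Barcodes with fewer than 50 counts and the top 1% of each library were left out (130442 of 131917 kept). Members, neighbours and lists were chosen with earlier results of these data known. Thresholds for the free antibodies are equal-probability points of a 2-component Gaussian mixture on 2000 cells per library, as were those of the rule. All 11 antibodies are named. Trends over 8 untreated libraries used rank correlation with exact permutation p. Neighbours were compared by an exact sign-flip test over libraries with at least 20 cells in both. Benjamini-Hochberg adjustment was within families of 3, 5 and 10 at 0.05. No test used cells as replicates. The exact intervals, which enter the size rule, count cells and so cover counting error only, not differences between pools. The gate and the exact tests were run on simulated data. Planted members were drawn from the mean profile of real members and gated with the same thresholds. No doublets were planted, so their recovery does not bear on doublets. Python 3.11.15, numpy 2.4.6, scipy 1.17.1, scikit-learn 1.9.0 and matplotlib 3.10.9 were used.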

Additional observations from a re-analysis of the deposited data

How the results depend on the processing

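In all 27 alternatives were tried; those with CD90.2+ cells left out of the denominator or of the neighbours were chosen after seeing the data. No share trend was called under any alternative run for it; leaving out 1 library gave rho of -0.75 to -0.429 over all kept cells, -0.643 to -0.107 over CD3- cells and -0.464 to 0.0357 within the CD11c gate, which turned positive without week 1. The treated to untreated ratio over all kept cells was 1.44 with thresholds fitted in each library, 22.5 with scaled counts and 2.37 without CD90.2+ members. Over CD3- cells the treated share was below the untreated one in the first and last of these.

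The count of free proteins with a called course was 1 (CD4) instead of 0 with looser thresholds, thresholds fitted in each library, thinning to 200 counts, at least 100 counts, Pearson correlation, the percent of a cell's counts and the median count. It was 2 with the mean centred log ratio, by which KLRG1 turned to -0.833 (adjusted exact permutation p = 0.0384), CD127 to -0.333 and Ly-6C to -0.119. KLRG1 was also negative with thresholds fitted in each library (-0.0238), with thinning (-0.357) and without single libraries (-0.0714 to 0.429).

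Of 10 neighbour comparisons 3 were called with thresholds fitted in each library, 0 with scaled counts (fewer libraries had enough cells), 10 with the mean centred log ratio and 2 with the median count. Against CD103- cells no difference changed sign. Against CD103+CD11b+ cells differences turned as follows, in ln(count + 1) unless another measure of level is named. CD4 was 0.0670 with thinning, 0.0142 with the top 5% left out, 0.214 with the mean centred log ratio (called, adjusted exact permutation p = 0.0174) and 0.0758 with the percent of counts. CD90.2 was -0.0244 with looser thresholds, -0.0505 with scaled counts, -0.117 without CD4+ members and -0.0849 with the median count. CD127 and KLRG1 were -0.0657 and -0.0698 with looser thresholds, -0.0391 and -0.119 with scaled counts, -0.145 and -0.140 without CD90.2+ members (KLRG1 called, adjusted exact permutation p = 0.025), -0.0287 and -0.0156 without CD4+ members, and -0.172 and -0.156 without both (each called, adjusted exact p = 0.0156). With CD90.2+ cells left out of members and neighbours they were -0.0188 and -0.0547, and KLRG1 was -0.0111 with the treated library added. Ly-6C was 0.0748 with the mean centred log ratio (called, adjusted exact permutation p = 0.0469). Leaving out 1 library gave -0.0599 to 0.0113 for CD4, -0.00889 to 0.103 for CD90.2, 0.00220 to 0.0674 for CD127 and -0.00814 to 0.0403 for KLRG1.

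The number of cells limits week 7 (76 members); depth was lowest at weeks 1 and 2 (median totals of 466 and 414 counts), and the median count of KLRG1 lies at 0 to 2. Thinning left out 12.9% of members at week 2.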
